A study of Mus musculus with 27 samples.

Results

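The mitochondrial ribosome is built from RNAs made inside mitochondria and from proteins whose genes lie in the nucleus, named Mrps for the small subunit and Mrpl for the large subunit. These genes were taken as every symbol in the 4 deposited count tables that begins with Mrps or Mrpl followed by a digit, with pseudogene names left out. The rule gave 77 genes, 29 Mrps and 48 Mrpl, among 20847 symbols in all. Of these, 76 were listed in the stem cell table, 77 in each oocyte table and 76 in the spermatid table. Mrpl11 was absent from the stem cell list and Mrpl23 from the spermatid list, and Mrpl41 was too low in stem cells to be tested, so that 75, 77, 77 and 76 genes entered the tests.

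The mitochondrial ribosome translates the messenger RNAs of the mitochondrial genome, which encode subunits of the respiratory chain and of ATP synthase. Its proteins are made in the cytosol and imported, and some have counterparts in bacterial ribosomes while others occur only in mitochondria. N6-methyladenosine (m6A) is laid on messenger RNAs by a complex whose catalytic subunit is Mettl3, and Ythdf1, Ythdf2 and Ythdf3 are cytoplasmic proteins that bind it. The symbols do not always give the place of the protein: the products of Mrps18a and Mrps30 were located in the large subunit of the mammalian mitochondrial ribosome, and Mrps36 belongs to the alpha-ketoglutarate dehydrogenase complex. Genes were grouped by symbol here.

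The study sequenced 27 RNA libraries in 12 groups. The embryonic stem cells were of the KH2 line (C57BL/6 x 129/Sv), kept in serum with LIF, a cytokine that holds them undifferentiated, and gave 2 poly(A)-selected libraries each of Ythdf1-/-, Ythdf2-/-, Ythdf3-/-, triple knockout (Ythdf1-/-Ythdf2-/-Ythdf3-/-), Mettl3-/- and wild-type (WT) cells. Whether a knockout line is a single clone is not given in the labels. GV oocytes, the grown oocytes that still hold an intact germinal vesicle, gave 3 libraries of Mettl3f/f Zp3-Cre+ mice (conditional knockout, cKO) and 4 of Mettl3f/f Zp3-Cre- mice, on a BDF1, C57BL/6 and Jax#003651 background. Zp3-Cre acts in growing oocytes, the controls carried the floxed alleles too, and each library pooled the oocytes of a mouse. Oocytes labelled post-GV, with no finer stage given, gave 2 libraries of Ythdf2-/- and 3 of Ythdf2+/- mice, so that the controls were heterozygous. Round spermatids, the haploid cells that follow meiosis in the testis, were sorted by FACS and gave 2 libraries of Ythdf2-/- and 1 of Ythdf2+/+ mice. Both of these sets were CB6F1 x C57BL/6, and ages were not given in the labels.

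The stem cell libraries held 612598 to 1111764 counts, far fewer than the GV (6484397 to 18181397), post-GV (12409822 to 25015081) and spermatid libraries (18843689 to 32759740). Levels are given as CPM, counts scaled to library size with TMM factors within a table. In 6 of 6 groups of stem cells the replicates differed by less than counting error (chi-square per gene 0.675 to 0.833), and nothing in the labels says that they were separate cultures. The stem cell p-values therefore measure the spread between these libraries, which may be technical, and may be too small for cultures grown apart. Mettl3 RNA was at 15.2 to 18.1 CPM in Mettl3 KO stem cells against 137 to 141 CPM in WT cells, and at 0.901 to 3.47 CPM in cKO oocytes against 13.2 to 41.7 CPM in Cre-negative oocytes. The Ythdf RNAs were not called lower in any Ythdf knockout, and since the deleted stretch is not given in the labels, whole-gene counts do not check those lines. Markers of the labelled cell types were all present, at 2842 to 3472 CPM summed over 6 stem cell markers in stem cells, for example. In each of these bulk libraries, fewer cells of a type and less RNA per cell cannot be told apart.

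The genes were short compared with others. The principal transcript had a median of 1288 bases in the 77 genes and 2782 bases in the other 18253 protein-coding genes listed. In 19 of 77 genes (24.7%) another gene started head to head within 1000 bases, against 1511 of 18253 other genes (8.28%). Exons overlapped those of another gene in 32 of 77 genes (41.6%), and because the strand setting of the authors' counting is not given in the sources used here, reads in such overlaps cannot be placed with certainty. RefSeq promoters (GRCm38.p6, 250 bases before to 50 after the start) were at hand for 68 of the 77 genes, in 74 windows. The ETS core CCGGAAG, searched on both strands, occurred in 25 of 74 windows (33.8%), against 2216 of 17188 windows of other listed genes (12.9%). AAGATGG, the core of the YY1 motif, occurred in 13 of 74 (17.6%, against 6.41%) and GCGCATG, from the NRF1 motif, in 8 of 74 (10.8%, against 5.45%). TATAAA was found in 6.76% of the windows and in 9.92% of the others.

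Mrpl43, Mrpl46, Mrps11 and Mrpl9 are among the genes with the largest changes described below, and their windows show the range of start sites, with any of these 3 motifs in capitals on either strand. The Mrpl43 window (chr19:45006393-45006692, minus strand) held the ETS core at 2 places. Mrpl46 (chr7:78783040-78783339, minus strand) and Mrps11 (chr7:78782881-78783180, plus strand) are transcribed away from a shared stretch, so that their windows overlap on opposite strands, the first without a match and the second with the YY1 core. The Mrpl9 window (chr3:94443086-94443385, plus strand) held GCGCATG on both strands, at 2 places that overlap.
Mrpl43: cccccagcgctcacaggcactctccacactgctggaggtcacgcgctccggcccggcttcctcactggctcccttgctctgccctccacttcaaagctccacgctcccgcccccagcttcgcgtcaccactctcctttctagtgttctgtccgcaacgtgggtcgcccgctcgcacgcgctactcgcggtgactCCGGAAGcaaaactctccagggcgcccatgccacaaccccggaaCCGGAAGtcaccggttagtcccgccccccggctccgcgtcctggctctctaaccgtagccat
Mrpl46: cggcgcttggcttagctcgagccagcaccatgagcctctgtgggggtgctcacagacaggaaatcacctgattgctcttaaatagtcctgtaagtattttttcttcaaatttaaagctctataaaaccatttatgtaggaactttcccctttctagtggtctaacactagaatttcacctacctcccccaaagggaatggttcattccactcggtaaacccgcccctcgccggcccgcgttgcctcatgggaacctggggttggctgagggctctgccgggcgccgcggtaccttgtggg
Mrps11: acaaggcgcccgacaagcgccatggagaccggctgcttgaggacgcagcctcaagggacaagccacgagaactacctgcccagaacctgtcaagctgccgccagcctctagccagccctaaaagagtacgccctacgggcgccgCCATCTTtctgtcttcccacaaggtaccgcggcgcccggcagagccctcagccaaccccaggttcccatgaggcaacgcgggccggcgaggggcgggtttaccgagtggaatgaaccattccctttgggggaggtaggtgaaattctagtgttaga
Mrpl9: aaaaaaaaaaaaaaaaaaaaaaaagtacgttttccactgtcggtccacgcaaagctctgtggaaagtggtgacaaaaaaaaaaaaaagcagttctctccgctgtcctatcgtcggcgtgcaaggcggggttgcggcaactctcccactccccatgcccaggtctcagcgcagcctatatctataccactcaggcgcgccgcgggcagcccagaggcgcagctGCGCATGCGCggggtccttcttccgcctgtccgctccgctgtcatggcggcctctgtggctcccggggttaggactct

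The first question was what loss of the m6A writer does to these genes in stem cells. Of 75 genes tested in Mettl3 KO cells against WT cells, 23 rose and 1 fell at an adjusted p under 0.05 (edgeR quasi-likelihood test, Benjamini-Hochberg over all genes tested). That is 30.7% higher and 1.33% lower, against a background of 15.2% higher and 15.1% lower among all 11951 genes (30.4% in either direction). By subunit, 11 of 29 Mrps genes rose and 0 fell, and 12 of 46 Mrpl genes rose and 1 fell. The median log2 change was 0.28 for Mrps genes and 0.11 for Mrpl genes, against -0.00 for all genes. The knockout libraries were both above both WT libraries in 39 of 75 genes (33.8% of all genes) and both below in 11 (33.7%). Summed over the subunit, Mrps genes reached 4003 and 4033 CPM in Mettl3 KO cells against 3387 and 3356 CPM in WT cells, and Mrpl genes 5826 and 5888 CPM in Mettl3 KO cells against 5049 and 5105 CPM in WT cells. Neither subunit's sums overlapped between the groups. The same held in the triple and single reader knockouts, against the same WT libraries.

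Among the Mrps genes the smallest p belonged to Mrps2, the counterpart of a conserved protein of the bacterial small subunit (chr2:28468066-28471178, plus strand). It was at 359.7 and 292 CPM in Mettl3 KO cells against 183 and 189.9 CPM in WT cells, a log2 change of 0.78 ± 0.08 (SE; edgeR adjusted p = 5.56e-12). Mrps30 was at 256 and 298 CPM in Mettl3 KO cells against 206 and 203 CPM in WT cells (log2 change 0.45 ± 0.09, edgeR adjusted p = 5.17e-05). In both genes every knockout library was above every WT library. They were named by p from these same libraries, so that lying apart is no separate result, here or for called genes below. Mrps12, the counterpart of the bacterial S12 protein at the decoding site, was at 123 and 112 CPM in Mettl3 KO cells against 78.4 and 87.4 CPM in WT cells (log2 change 0.50, edgeR adjusted p = 0.00656). The 3 paralogs of bacterial S18 did not move alike. Mrps18a and Mrps18b rose, with log2 changes of 0.42 and 0.38 (edgeR adjusted p = 0.00714 and 0.00666). Mrps18c was at 95.3 and 90.2 CPM in Mettl3 KO cells against 108 and 101 CPM in WT cells and was not called (log2 change -0.18, edgeR adjusted p = 0.416). Mrps35, Mrps17, Mrps23, Mrps24 and Mrps15 rose by 0.28 to 0.45 on the log2 scale.

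Among the Mrpl genes Mrpl46 and Mrpl43 led, and both encode proteins found only in mitochondrial ribosomes. Mrpl46 was at 255 and 231 CPM in Mettl3 KO cells against 124 and 130.2 CPM in WT cells, a 1.89-fold rise (log2 change 0.92 ± 0.09, edgeR adjusted p = 6.58e-13). Mrpl43 was at 232 and 255 CPM in Mettl3 KO cells against 136 and 127 CPM in WT cells, a 1.87-fold rise (log2 change 0.90 ± 0.09, edgeR adjusted p = 9.69e-13). The groups were well apart in both genes. Mrps11, which shares the start region of Mrpl46 printed above, was at 107 and 128 CPM in Mettl3 KO cells against 104.5 and 119 CPM in WT cells (log2 change 0.09 ± 0.12, edgeR adjusted p = 0.673). Its libraries overlapped between the groups, while exons of the pair overlap by 173 bases on opposite strands. Mrpl16, whose bacterial counterpart lies near the peptidyl transferase centre, was at 218.5 and 231 CPM in Mettl3 KO cells against 142 and 149.8 CPM in WT cells (log2 change 0.63 ± 0.09, edgeR adjusted p = 6.01e-07). Mrpl12, the counterpart of the bacterial stalk protein that recruits translation factors, was at 278 and 281 CPM in Mettl3 KO cells against 188 and 195 CPM in WT cells (log2 change 0.54 ± 0.08, edgeR adjusted p = 1.06e-06). Mrpl54, Mrpl40, Mrpl55, Mrpl20 and Mrpl14 rose by 0.42 to 0.64.

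Mrpl49 was the member that fell. It was at 102 and 116 CPM in Mettl3 KO cells against 151 and 168.5 CPM in WT cells (log2 change -0.54 ± 0.11, edgeR adjusted p = 4.84e-04), and the groups did not overlap. Mrpl19, singled out after its values were seen because its fold was the highest of the 23, was at 11.5 and 30.5 CPM in Mettl3 KO cells against 9.01 and 7.13 CPM in WT cells (log2 change 1.47 ± 0.41, edgeR adjusted p = 0.00361), so that much of its change lay in 1 library. DESeq2 called 8 of the 24 genes, with 10.4% of all genes called, and edgeR called 13 without Mettl3 KO replicate B and 15 without WT replicate A. Mrpl46, Mrpl43, Mrps2, Mrpl16, Mrpl12, Mrpl54 and Mrpl40 were called under each of the 10 alternatives run.

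**Figure D1:**
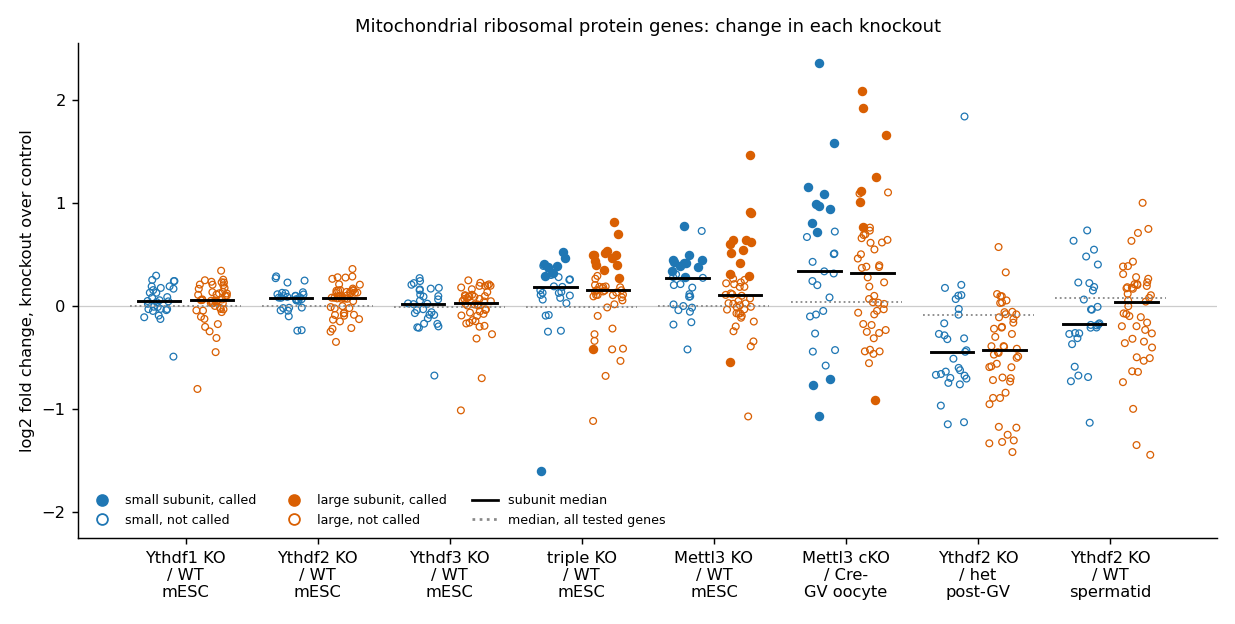
Log2 fold change of each gene, knockout over its own control, in the 8 comparisons (vertical axis; small subunit genes blue on the left, large subunit genes orange on the right of each pair). Filled points were called at an adjusted p under 0.05, black bars are subunit medians and dotted lines the median of all genes tested. In Mettl3 KO stem cells the medians were 0.28 and 0.11, in GV oocytes 0.34 and 0.33, and in post-GV oocytes -0.44 and -0.43 with no gene called.

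Other parts of mitochondrial translation were read from lists in the same stem cells. Of all genes tested, 15.2% were called higher and 15.1% lower, and no list was tested as a set. Of 17 genes for assembly of the ribosome and modification of its RNA, 5 rose and 1 fell. Rbfa, a maturation factor of the small subunit, was at 202 to 203 CPM in Mettl3 KO cells against 111 to 128 CPM in WT cells (log2 change 0.76 ± 0.10, edgeR adjusted p = 1.21e-08). Of 14 translation factors 3 rose and 2 fell, among them Tsfm, the mitochondrial elongation factor Ts (0.56, edgeR adjusted p = 1.38e-04), and Oxa1l, which inserts mitochondrial products into the inner membrane (-0.73, edgeR adjusted p = 0.0360). Of 21 aminoacyl-tRNA synthetases of mitochondria, 1 rose and 7 fell. Wars2, which charges the tryptophan tRNA, was at 8.20 to 8.21 CPM in Mettl3 KO cells against 17.8 to 23.4 CPM in WT cells (-1.31 ± 0.38, edgeR adjusted p = 0.0101). Of 5 ribosomal proteins under other symbols 2 rose, Ict1 (0.44 ± 0.09, edgeR adjusted p = 0.00137), a peptidyl-tRNA hydrolase now also called Mrpl58, and Chchd1 (0.35, edgeR adjusted p = 0.0321). Cytosolic ribosomal proteins gave 7 of 84 higher and 16 lower, with a median of -0.07. Nuclear respiratory chain genes gave 12 of 78 higher and 5 lower, with a median of 0.06.

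The triple knockout asked the same of the 3 readers together, against the same 2 WT libraries. In triple KO cells 20 of 75 genes rose and 2 fell, or 26.7% and 2.67%, against a background of 13.3% higher and 11.8% lower (25.1% in either direction). By subunit, 7 of 29 Mrps genes rose and 1 fell, and 13 of 46 Mrpl genes rose and 1 fell, with median log2 changes of 0.19 and 0.15 against -0.00 for all genes. Both knockout libraries lay above both WT libraries in 49 of 75 genes (33.7% of all genes) and below in 12 (33.7%). Summed Mrps levels were 3971 and 3842 CPM in triple KO cells against 3387 and 3356 CPM in WT cells, and summed Mrpl levels were 5997 and 5946 CPM in triple KO cells against 5049 and 5105 CPM in WT cells.

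Mrps35, a small subunit protein found only in mitochondria, had the smallest p of its subunit, at 281 and 260.1 CPM in triple KO cells against 183 and 191 CPM in WT cells (log2 change 0.53 ± 0.09, edgeR adjusted p = 7.49e-06). Mrps2 was at 246 and 267 CPM in triple KO cells against 183 and 189.9 CPM in WT cells (0.46 ± 0.09, edgeR adjusted p = 1.40e-04). Both genes had every knockout library above the WT libraries. Mrps14, the counterpart of the bacterial S14 protein, fell to 7.80 and 5.48 CPM in triple KO cells, against 19.8 and 20.5 CPM in WT cells (-1.60 ± 0.42, edgeR adjusted p = 0.00449). It was the largest change of any called member in this comparison and rested on few reads. In Mettl3 KO cells Mrps14 was at 18.1 and 12.9 CPM and was not called. Mrps30, Mrps7, Mrps12, Mrps17 and Mrps15 rose by 0.29 to 0.41. None of the S18 paralogs was called, with log2 changes of 0.19 for Mrps18a, 0.26 for Mrps18b and 0.10 for Mrps18c (edgeR adjusted p = 0.328, 0.104 and 0.658), nor was Ict1 (0.23, edgeR adjusted p = 0.172).

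Mrpl46 was at 234 and 216 CPM in triple KO cells against 124 and 130.2 CPM in WT cells, a 1.76-fold rise (log2 change 0.82 ± 0.10, edgeR adjusted p = 4.05e-10). Its neighbour Mrps11 was at 137 and 139.6 CPM in triple KO cells against 104.5 and 119 CPM in WT cells (0.31 ± 0.11, edgeR adjusted p = 0.0850) and was not called. Mrpl43 was at 206 and 222 CPM in triple KO cells against 136 and 127 CPM in WT cells (0.71 ± 0.10, edgeR adjusted p = 1.37e-07). Mrpl46 and Mrpl43 stood apart from WT cells in every library of both lines. Both lines share the WT libraries, and these genes were named by p from the same libraries. Their lying apart is therefore no separate result. Mrpl12, Mrpl40 and Mrpl16 rose by 0.47 to 0.53, and Mrpl55, Mrpl37, Mrpl21 and Mrpl20 by 0.40 to 0.50. Mrpl49 fell to 123 and 116 CPM in triple KO cells, against 151 and 168.5 CPM in WT cells (-0.42 ± 0.11, edgeR adjusted p = 0.0108).

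DESeq2 called 6 of the 22 genes (6.57% of all genes), and edgeR called 11 without triple KO replicate B, 12 without replicate A and 14 without WT replicate B. Mrpl46, Mrpl43, Mrps35, Mrpl12, Mrpl40 and Mrpl16 were called under each of the 10 alternatives. Fibroblast feeder markers (5 of 6 with counts, Lum at 0) summed to 122 to 127 CPM in triple KO cells, 75.6 to 84.4 CPM in Mettl3 KO cells and 111 to 129.7 CPM in WT cells. The Sertoli list (2 of 5 with counts, Wt1 and Rhox5, with Sox9, Amh and Cldn11 at 0) summed to 285 to 307 CPM in triple KO cells, 94.9 to 98.6 CPM in Mettl3 KO cells and 54.4 to 62.2 CPM in WT cells. Only 1 of its genes passed the expression filter, with a log2 change of 2.35 in triple KO cells, so the sum does not stand for the list. Pachytene spermatocyte markers (4 of 5 listed) summed to 356 to 370 CPM in triple KO cells, 161 to 212 CPM in Mettl3 KO cells and 250 to 265 CPM in WT cells. Spermatogonium markers (5 of 5) summed to 595 to 627 CPM in triple KO cells, 425 to 466.5 CPM in Mettl3 KO cells and 436 to 458.5 CPM in WT cells. Oocyte markers (2 of 7) summed to 270 to 271 CPM in triple KO cells and 205 to 218 CPM in Mettl3 KO cells. They summed to 285 to 291 CPM in WT cells. Granulosa and cumulus markers (2 of 8) summed to 137 to 161, 192 to 225 and 150 to 159 CPM in the same order. The 6 stem cell markers summed to 3148 to 3308, 2888 to 3209 and 2842 to 2877 CPM. The part of these lists in the results was not tested.

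Of the lists on mitochondrial translation, assembly and RNA modification gave 6 of 17 genes higher and 0 lower in triple KO cells. Of all genes tested, 13.3% were called higher and 11.8% lower, and no list was tested as a set. Rbfa was at 199.6 to 216 CPM in triple KO cells against 111 to 128 CPM in WT cells (log2 change 0.81 ± 0.10, edgeR adjusted p = 3.39e-09), and Grsf1, an RNA-binding protein of the mitochondrial RNA granules, at 304 to 334 CPM in triple KO cells against 247 to 249 CPM in WT cells (0.37 ± 0.08, edgeR adjusted p = 7.74e-04). Of 14 translation factors 2 fell. Oxa1l fell to 10.9 to 12.5 CPM in triple KO cells, against 33.3 to 43.7 CPM in WT cells (-1.71 ± 0.30, edgeR adjusted p = 1.41e-05), and Lrpprc, which stabilises mitochondrial messenger RNAs, by 0.39 (edgeR adjusted p = 0.0259). None of 21 aminoacyl-tRNA synthetases passed the threshold. Cytosolic ribosomal proteins gave 15 of 84 higher and 7 lower with a median of 0.07, and respiratory chain genes 5 of 78 higher and 4 lower with a median of 0.06.

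**Figure D2:**
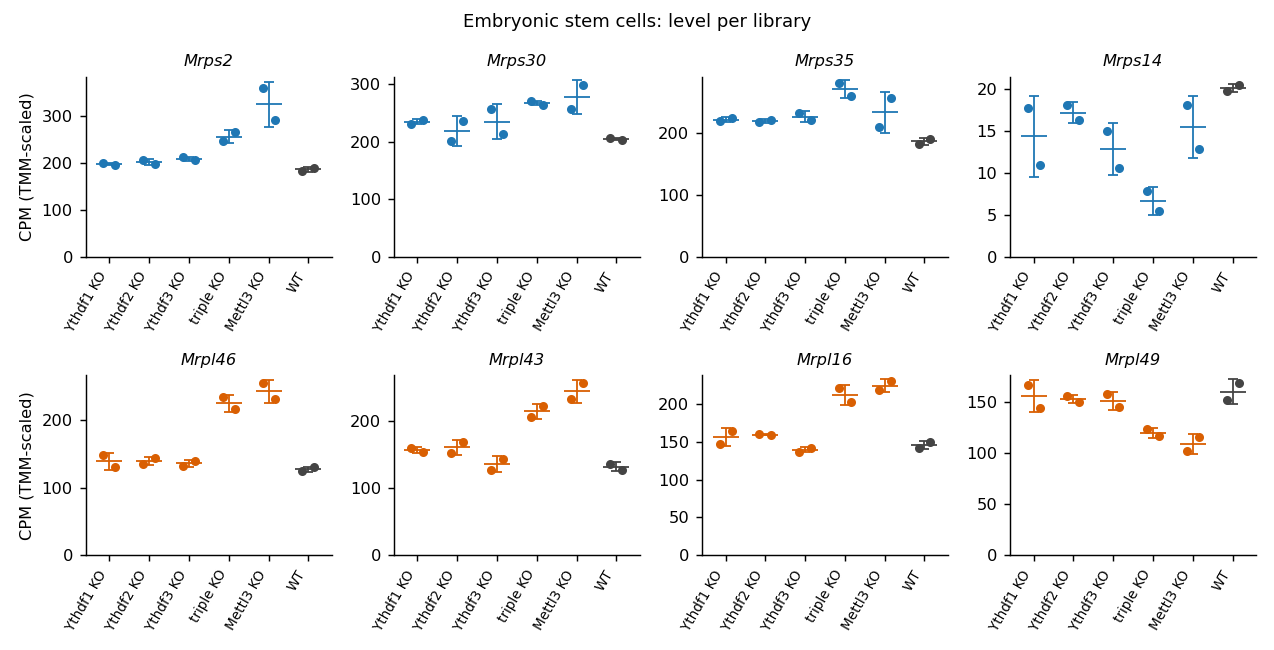
CPM per library (vertical axis, from 0) of 4 Mrps genes (blue) and 4 Mrpl genes (orange) in the 5 knockout stem cell groups, with WT cells in grey at the right; points are libraries and bars the mean ± SD of 2. Mrpl46 lay at 216 to 255 CPM in the triple and Mettl3 KO libraries and at 124 to 148 CPM in the others, while Mrpl49 was lower in triple and Mettl3 KO cells than in WT cells.

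Loss of a single reader left no member past the threshold. Of 75 genes, 0 were called in Ythdf1 KO cells (3.45% of all genes), 0 in Ythdf2 KO cells (1.91%) and 0 in Ythdf3 KO cells (2.84%). DESeq2 likewise called 0 in each (0.469%, 0.092% and 0.243% of all genes), and 9, 5 and 4 genes had an unadjusted edgeR p under 0.05. Median log2 changes of all 75 genes were 0.06, 0.08 and 0.03, with 50, 52 and 45 genes above 0, and all 3 comparisons share the WT libraries. In the same order the medians were 0.07, 0.05 and 0.08 for cytosolic ribosomal protein genes. For nuclear respiratory chain genes they were 0.09, 0.06 and 0.09. Every knockout library was above both WT libraries in 27, 24 and 24 genes, against 25.3%, 23.1% and 25.5% of all genes. Summed Mrps levels in Ythdf1, Ythdf2 and Ythdf3 KO cells were 3513 and 3604, 3559 and 3621, and 3476 and 3541 CPM. WT cells had 3387 and 3356 CPM. Summed Mrpl levels were 5277 and 5463, 5346 and 5431, and 5179 and 5319 CPM, against 5049 and 5105 CPM in WT cells. Neither sum overlapped with WT cells in any single knockout.

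Mrps35 was among the smallest p-values in each single knockout. It was at 219 and 224 CPM in Ythdf1 KO cells, 217 and 221 CPM in Ythdf2 KO cells and 233 and 221 CPM in Ythdf3 KO cells, against 183 and 191 CPM in WT cells. All 6 knockout libraries were above the WT libraries, with log2 changes of 0.25, 0.23 and 0.27 (edgeR adjusted p = 0.188, 0.324 and 0.178). Mrpl46, the leading gene of the triple and Mettl3 knockouts, was at 130.1 to 148 CPM in the 6 single knockout libraries against 124 and 130.2 CPM in WT cells. Mrpl15, a large subunit protein with a bacterial counterpart, was at 10.0 and 10.6 CPM in Ythdf3 KO cells against 20.7 and 21.4 CPM in WT cells (log2 change -1.01 ± 0.37, edgeR adjusted p = 0.187). Mrpl50 was at a mean of 98.1 ± 2.68 CPM in Ythdf1 KO cells and 121 ± 1.01 CPM in WT cells (SD, n = 2 each; log2 change -0.31 ± 0.11, edgeR adjusted p = 0.252). The libraries of Mrps35, Mrpl15 and Mrpl50 did not overlap with WT cells in these comparisons, yet none was called.

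The other genes of smallest p in the single knockouts were also apart from WT cells without passing the threshold. They were picked by p from the same libraries, as were Mrps35, Mrpl15 and Mrpl50, so that lying apart is no separate result. Both knockout libraries lay below both WT libraries in 7, 7 and 16 of 75 members in Ythdf1, Ythdf2 and Ythdf3 KO cells. Among all 11951 genes 3061, 2772 and 3065 did so. In Ythdf1 KO cells Mrpl40 was at 245.5 and 263.5 CPM against 205 and 228 CPM in WT cells (log2 change 0.23, edgeR adjusted p = 0.181). Mrps27, a protein with no bacterial counterpart, was at 111 and 125 CPM in Ythdf1 KO cells against 95.5 and 96.3 CPM in WT cells (0.30, edgeR adjusted p = 0.283). In Ythdf2 KO cells Mrpl12 had the smallest p, at 237 and 229 CPM against 188 and 195 CPM in WT cells (0.28, edgeR adjusted p = 0.148). Mrps10, the counterpart of bacterial S10, was at 182 and 163 CPM in Ythdf2 KO cells against 129.7 and 152 CPM in WT cells (0.29, edgeR adjusted p = 0.232), and Mrpl43 at 153 and 168 CPM in Ythdf2 KO cells against 136 and 127 CPM in WT cells (0.29, edgeR adjusted p = 0.266). In Ythdf3 KO cells Mrpl51, like Mrpl15, was below WT cells, at 20.1 and 22.6 CPM against 30.6 and 39.2 CPM in WT cells (-0.70, edgeR adjusted p = 0.228). Mrpl42 was at 166 and 170.1 CPM in Ythdf3 KO cells against 143 and 139 CPM in WT cells (0.25, edgeR adjusted p = 0.331). The S18 paralogs, Mrps12 and Ict1 had log2 changes between -0.11 and 0.25 in the single knockouts, and Mrpl12 had 0.21 in Ythdf1 KO cells and 0.09 in Ythdf3 KO cells. Rbfa, from the assembly list, rose in each single knockout, by 0.40, 0.43 and 0.53 (edgeR adjusted p = 0.0347, 0.0370 and 0.0050).

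In GV oocytes the same writer was removed in the growing oocyte. Of 77 genes, 16 rose and 4 fell in cKO oocytes against Cre-negative oocytes. That is 20.8% higher and 5.19% lower, against a background of 15.4% higher and 13.4% lower among 13551 genes (28.8% in either direction). By subunit, 9 of 29 Mrps genes rose and 3 fell, and 7 of 48 Mrpl genes rose and 1 fell, with medians of 0.34 and 0.33 against 0.04 for all genes. All 3 cKO libraries were above all 4 controls in 24 of 77 genes (21.0% of all genes) and below them in 9 (18.3%). Summed Mrps levels were 2513, 2551 and 1934 CPM in cKO oocytes against 2461, 2097, 2102 and 2023 CPM in controls and overlapped. Summed Mrpl levels were 4394, 4329 and 3399 CPM in cKO oocytes against 3624, 3157, 3232 and 2955 CPM in controls and overlapped too. The ratio of the sums, small over large, was 0.572, 0.589 and 0.569 in cKO oocytes against 0.679, 0.664, 0.650 and 0.685 in controls, with no overlap. Genes of high CPM weigh most in a sum. The median log2 changes, 0.34 and 0.33, were close, and more Mrps genes (9 of 29) than Mrpl genes (7 of 48) rose. Mrpl9 was at 268 to 368 CPM in cKO oocytes against 71.4 to 126 CPM in controls. Mrpl16 and Mrpl17 also rose, and Mrps25 fell. The part of these genes in the ratio was not tested.

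Mrps34, a small subunit protein found only in mitochondria, had the highest fold of all members. It was at 27.4, 29.8 and 23.7 CPM in cKO oocytes against 3.82, 5.14, 8.82 and 3.28 CPM in controls, 5.15-fold higher (log2 change 2.36 ± 0.38, edgeR adjusted p = 0.00224). Its exons (chr17:24895116-24897502, plus strand) share 2072 bases with those of Nme3 and Mapk8ip3, so that reads of these genes may be mixed. Mrps6, the counterpart of bacterial S6, was at 92.6, 81.4 and 78.4 CPM in cKO oocytes against 26.5, 25.9, 36.1 and 23.8 CPM in controls (1.58 ± 0.22, edgeR adjusted p = 0.00128). Its exons share 464 bases with those of Slc5a3 and Gm49711 on the same strand, so that reads may be mixed here too. In Mrps34 and Mrps6 every cKO library was above every control. Mrps2 was at 159, 138 and 99.1 CPM in cKO oocytes against 72.5, 64.6, 71.2 and 61.1 CPM in controls (0.97 ± 0.21, edgeR adjusted p = 0.00868). Mrps11 was at 39.9, 40.4 and 28.7 CPM in cKO oocytes against 18.9, 15.7, 13.3 and 17.03 CPM in controls (1.16 ± 0.25, edgeR adjusted p = 0.00836). Here its partner Mrpl46 was the gene that missed the threshold, at 74.5, 72.5 and 46.6 CPM in cKO oocytes against 56.4, 42.2, 43.9 and 39.5 CPM in controls (0.51 ± 0.24, edgeR adjusted p = 0.142). Mrps27, Mrps26, Mrps23, Mrps15 and Mrps30 rose by 0.73 to 1.09.

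The Mrps genes that fell were Mrps25, Mrps31 and Mrps33, whose products occur only in mitochondria. Mrps25 fell to 109.5, 122 and 106 CPM in cKO oocytes, against 291, 219, 170.4 and 264 CPM in controls (log2 change -1.07 ± 0.23, edgeR adjusted p = 0.00745). It overlaps Nr2c2 on the other strand over 4590 bases of exon. Mrps31 fell to 82.9, 80.2 and 77.7 CPM in cKO oocytes, against 152, 126, 141 and 126 CPM in controls (-0.76 ± 0.18, edgeR adjusted p = 0.0128). Mrps33 fell to 77.6, 107 and 76.9 CPM in cKO oocytes, against 149, 139.6, 149.9 and 131 CPM in controls (-0.70 ± 0.20, edgeR adjusted p = 0.0264). All cKO libraries of these 3 genes lay below all controls, which is no separate result, since the genes were called from these libraries.

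Among Mrpl genes Mrpl16 had the smallest p, at 142, 122 and 173 CPM in cKO oocytes against 33.9, 35.6, 35.2 and 32.3 CPM in controls, 4.25-fold higher (log2 change 2.09 ± 0.20, edgeR adjusted p = 2.63e-04). Mrpl43 was at 87.4, 97.1 and 80.5 CPM in cKO oocytes against 23.8, 18.8, 28.9 and 21.2 CPM in controls, 3.81-fold higher (1.93 ± 0.22, edgeR adjusted p = 6.03e-04). Neither gene overlapped between groups, although exons of Mrpl43 share 507 bases with those of Twnk, the mitochondrial DNA helicase, on the other strand. Mrpl9, with a bacterial counterpart, was at 368, 319 and 268 CPM in cKO oocytes against 126, 78.7, 71.4 and 125 CPM in controls (1.67 ± 0.26, edgeR adjusted p = 0.00187). Mrpl17 was at 179, 173.5 and 170.5 CPM in cKO oocytes against 80.4, 65.5, 78.2 and 67.5 CPM in controls (1.26 ± 0.18, edgeR adjusted p = 0.00135). Mrpl49 was at 44.4, 40.5 and 27.9 CPM in cKO oocytes against 17.2, 17.9, 20.6 and 13.9 CPM in controls (1.12 ± 0.26, edgeR adjusted p = 0.0123). Mrpl44, which carries a ribonuclease III fold, and Mrpl10, whose bacterial counterpart anchors the stalk, rose by 1.02 and 0.78. Mrpl48 fell to 113, 158 and 129 CPM in cKO oocytes, against 259, 278, 236 and 226 CPM in controls (-0.91 ± 0.20, edgeR adjusted p = 0.00822). Exons of Mrpl9 share 157 bases with those of Oaz3, and exons of Mrpl48 share 708 with those of Rab6a, on the other strand.

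Some genes that rose in Mettl3 KO stem cells were not called here. Mrpl12 was at 82.4, 70.5 and 54.7 CPM in cKO oocytes against 113.5, 75.4, 69.1 and 85.5 CPM in controls (log2 change -0.31, edgeR adjusted p = 0.364), and Mrps12 had a change of 0.51 (edgeR adjusted p = 0.147). Of the S18 paralogs, Mrps18b ranged from 16.8 to 135 CPM over the 3 cKO libraries and from 26.4 to 90.6 CPM over the controls, and neither it nor Mrps18a (0.09) nor Mrps18c (-0.10) was called. Ict1 was not called either (0.12, edgeR adjusted p = 0.820). DESeq2 called 25 members (36.7% of all genes), without cKO replicate 1 edgeR called 11, and Mrpl16, Mrpl43, Mrps6, Mrpl17, Mrpl9, Mrps34, Mrps27, Mrps25, Mrpl48, Mrps11 and Mrps31 were called under each of the 12 alternatives. Granulosa and cumulus markers (8 of 8 with counts) summed to 55.7 to 200.3 CPM in cKO oocytes against 241 to 1088 CPM in controls, and the 7 oocyte markers to 20340 to 25780 CPM in cKO oocytes against 14010 to 26250 CPM in controls. The sums of 3 further lists did not overlap between the groups either. Pachytene spermatocyte markers (4 of 5 listed, 3 called higher and 1 lower) summed to 153 to 208 CPM in cKO oocytes against 41.5 to 61.5 CPM in controls, and the 6 stem cell markers to 1290 to 2324 CPM in cKO oocytes against 503.5 to 891 CPM in controls. Sertoli markers (5 of 5 with counts) summed to 2.07 to 5.02 CPM in cKO oocytes against 7.58 to 58.1 CPM in controls. The part of these lists in the results was not tested.

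**Figure D3:**
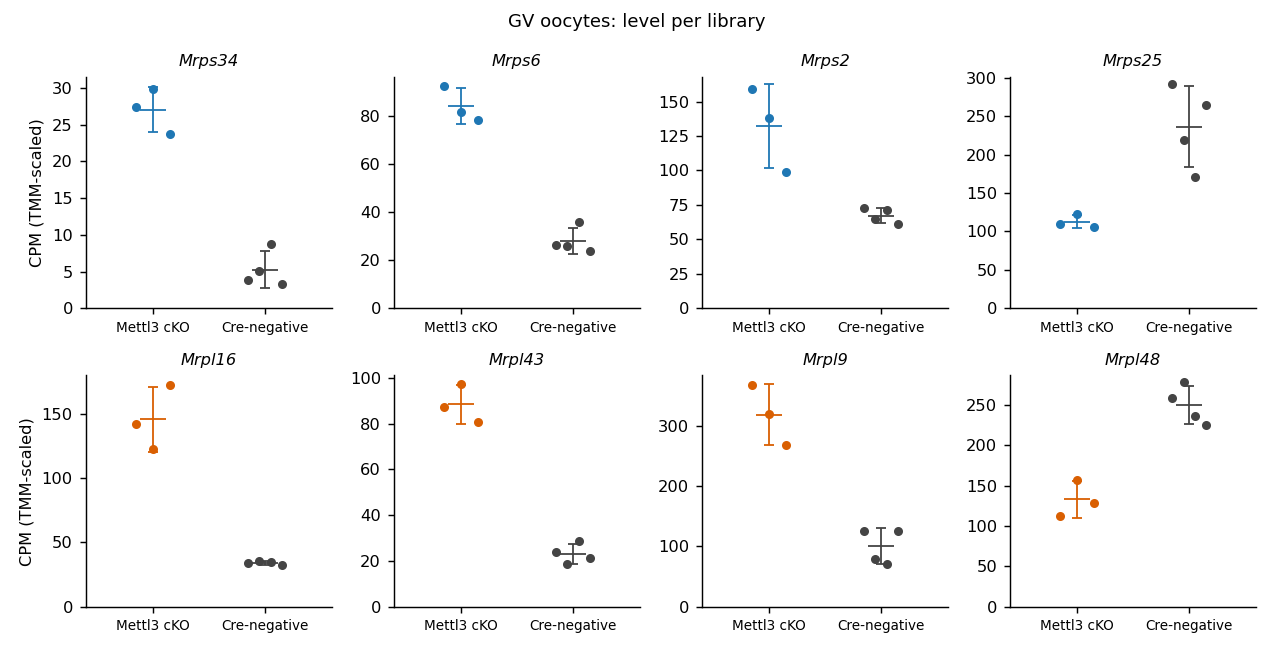
CPM per library (vertical axis, from 0) of 4 Mrps genes (blue) and 4 Mrpl genes (orange) in 3 cKO libraries, left, and 4 Cre-negative libraries (grey), right; bars are the mean ± SD. The genes shown were picked among called members, so that groups lying apart in each panel is no separate result. Mrpl16 spans 122 to 173 CPM in cKO oocytes and 32.3 to 35.6 CPM in controls, while Mrps25 and Mrpl48 are lower in cKO oocytes.

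In the other lists in GV oocytes, assembly and RNA modification gave 5 of 19 genes higher and 1 lower. Of all genes tested, 15.4% were called higher and 13.4% lower, and no list was tested as a set. Mrm1, which methylates the ribosomal RNA of the large subunit, was at 4.44 to 13.5 CPM in cKO oocytes against 0.694 to 2.83 CPM in controls (log2 change 2.71 ± 0.57, edgeR adjusted p = 0.00774). Eral1, a chaperone of the small subunit RNA, was at 35.3 to 45.3 CPM in cKO oocytes against 10.8 to 14.6 CPM in controls (1.52 ± 0.24, edgeR adjusted p = 0.00224). Nsun4, an RNA methyltransferase of the ribosome, fell to 111 to 149.9 CPM in cKO oocytes, against 218 to 382 CPM in controls (-1.17 ± 0.24, edgeR adjusted p = 0.00647). Tsfm and Oxa1l were the 2 of 15 translation factors that rose (0.82 and 0.89, edgeR adjusted p = 0.0468 and 0.0253), and 3 of 22 aminoacyl-tRNA synthetases rose, among them Pars2 (1.62) and Cars2 (1.17). Cytosolic ribosomal proteins gave 3 of 80 higher and 0 lower with a median of -0.25, and respiratory chain genes 8 of 79 higher and 0 lower with a median of 0.10.

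The stem cell and oocyte experiments on Mettl3 share no library, so that their calls could be set side by side for the 75 genes tested in both. Mrps2, Mrps15, Mrps23, Mrps30, Mrpl16 and Mrpl43 rose in both, which is 26.1% of the 23 genes that rose in stem cells and 37.5% of the 16 that rose in oocytes. Over all 10295 genes tested in both, 353 rose in both, or 22.7% of the 1555 that rose in stem cells and 21.1% of the 1673 that rose in oocytes. The sign was the same in 48 of 75 members (64%) and in 5453 of all genes (53.0%). The log2 changes of Mrpl43 were 0.90 in stem cells and 1.93 in oocytes, and those of Mrpl16 were 0.63 and 2.09. Mrpl49 fell in stem cells and rose in oocytes. The rank correlation of the 75 log2 changes was 0.194, and that of all genes 0.0854, given as a description across genes that share the libraries of each experiment.

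**Figure D4:**
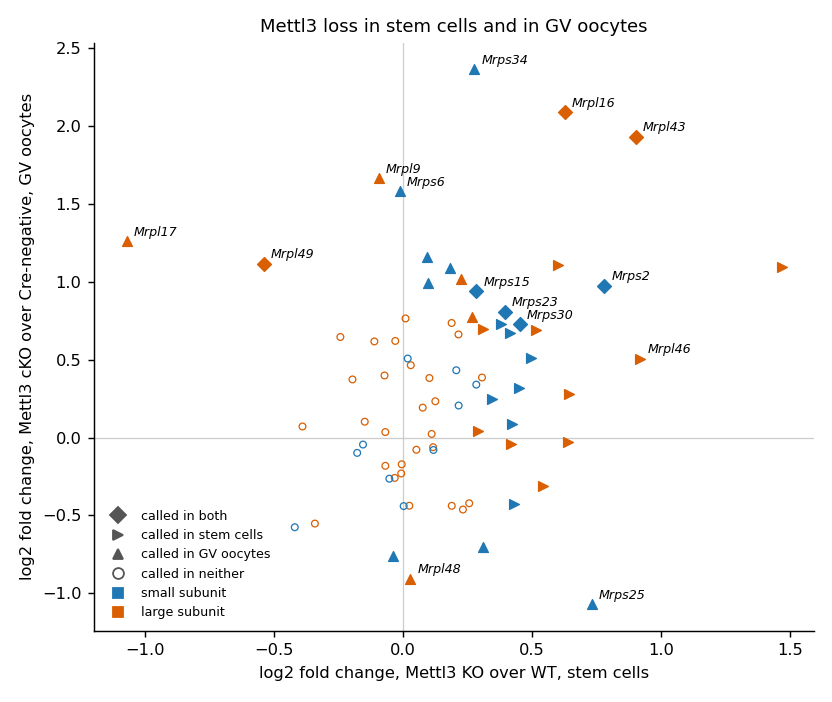
Log2 fold change on Mettl3 loss in stem cells (horizontal axis, Mettl3 KO over WT) and in GV oocytes (vertical axis, cKO over Cre-negative) for the 75 genes tested in both; diamonds were called in both, other filled symbols in 1 of them and open circles in neither. Mrpl16 (0.63, 2.09) and Mrpl43 (0.90, 1.93) lie at the upper right, and Mrpl49 (-0.54, 1.12) at the upper left.

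Loss of Ythdf2 in post-GV oocytes was set against heterozygous oocytes. No gene of the 77 was called (background 0.0%; DESeq2 also called 0, with 0.554% of all genes called, and 1 member had an unadjusted edgeR p under 0.05). The median log2 change was -0.44 for Mrps genes and -0.43 for Mrpl genes against -0.09 for all genes, and 14 of 77 were above 0. Cytosolic ribosomal protein genes had a median of -0.87, with 8 of 80 above 0. Nuclear respiratory chain genes had -0.85, with 12 of 79 above 0, so the lower median was not particular to the members. The libraries overlapped widely: summed Mrps levels were 802 and 555.7 CPM in Ythdf2 KO oocytes against 804.3, 950.0 and 603.8 CPM in heterozygous oocytes. Summed Mrpl levels were 1558 and 975.5 CPM in Ythdf2 KO oocytes against 1537, 1893 and 1187 CPM in heterozygous oocytes. The authors' batch adjustment shifted KO replicate 1 with heterozygous replicates 1 and 2, and KO replicate 2 with heterozygous replicate 3, so these were read as 2 batches. Within them the median log2 change of the 77 genes was -0.21 and -0.29 against -0.03 and -0.04 for all genes, and a fit with batch as a term gave -0.27.

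Mrps36, whose product belongs to the alpha-ketoglutarate dehydrogenase complex, was that member. It was at 73.5 and 58.2 CPM in Ythdf2 KO oocytes against 23.9, 18.8 and 12.3 CPM in heterozygous oocytes, with no overlap (log2 change 1.84 ± 0.44, edgeR adjusted p = 0.716). With batch as a term it was the 1 member called (1.98 ± 0.38, edgeR adjusted p = 0.0156; 1.85% of all genes were called), and within the batches its log2 ratio was 1.76 and 2.20. The other genes of smallest p overlapped or nearly so: Mrpl42 was at 32.9 and 10.9 CPM in Ythdf2 KO oocytes against 48.7, 79.4 and 19.7 CPM in heterozygous oocytes (-1.17 ± 0.75, edgeR adjusted p = 0.848). Mrps25 was at 29.2 and 32.6 CPM in Ythdf2 KO oocytes against 44.7, 34.5 and 63.3 CPM in heterozygous oocytes (-0.62 ± 0.43, edgeR adjusted p = 0.848). Mrpl12 was at 18.01 and 2.79 CPM in Ythdf2 KO oocytes against 18.4, 21.5 and 2.75 CPM in heterozygous oocytes, low in both libraries of the second batch. Mrpl55 showed the same, at 9.34 and 2.404 CPM in Ythdf2 KO oocytes against 13.5, 22.7 and 5.80 CPM in heterozygous oocytes (-1.25 ± 0.87, edgeR adjusted p = 0.848). The S18 paralogs, Mrps12 and Ict1 had log2 changes of -0.76 to -0.60, and their libraries overlapped. Oocyte markers summed to 6738 to 6756 CPM in Ythdf2 KO oocytes against 2173 to 4275 CPM in heterozygous oocytes. Pachytene spermatocyte markers (4 of 5 listed) summed to 152 to 179 CPM in Ythdf2 KO oocytes against 107 to 120.1 CPM in heterozygous oocytes, and the 6 stem cell markers to 103 to 159.5 CPM in Ythdf2 KO oocytes against 34.8 to 72.2 CPM in heterozygous oocytes. No marker of these lists was called, and their part in the result was not tested.

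In round spermatids, 0 of 76 genes were called in Ythdf2 KO cells against the single WT library (4.9% of all 16031 genes were called; DESeq2 called 0 members and 2.48% of all genes, and 7 had an unadjusted edgeR p under 0.05). The median log2 change was -0.18 for Mrps genes and 0.05 for Mrpl genes, against 0.08 for all genes. It was -0.07 for cytosolic ribosomal protein genes and -0.14 for nuclear respiratory chain genes. Mrpl12 was at 43.0 and 44.1 CPM in Ythdf2 KO spermatids against 72.6 CPM in WT spermatids (-0.74 ± 0.28, edgeR adjusted p = 0.113). Mrps11 was at 53.8 and 44.1 CPM in Ythdf2 KO spermatids against 78.0 CPM in WT spermatids (-0.67 ± 0.28, edgeR adjusted p = 0.154). Mrpl45, a protein near the exit of the ribosomal tunnel, was at 2.75 and 3.34 CPM in Ythdf2 KO spermatids against 7.77 CPM in WT spermatids (-1.35 ± 0.52, edgeR adjusted p = 0.119), and Mrps10 was at 6.08 and 3.51 CPM in Ythdf2 KO spermatids against 10.5 CPM in WT spermatids (-1.13 ± 0.46, edgeR adjusted p = 0.148). Both knockout libraries lay below the WT library in these 4 genes, a pattern that 33 of 76 members and 36.1% of all genes shared. Mrps36 was at 35.9 and 32.4 CPM in Ythdf2 KO spermatids against 23.3 CPM in WT spermatids (0.55, edgeR adjusted p = 0.399). The S18 paralogs had log2 changes of -0.27 to -0.17, Mrps12 0.74 and Ict1 0.53, none of them called. With 1 control library the spread came from the knockout pair. Pachytene spermatocyte markers (5 of 5 with counts) summed to 390.5 to 475 CPM in Ythdf2 KO spermatids against 641 CPM in WT spermatids. The round spermatid markers themselves (7 of 7 with counts, 1 called higher) summed to 8998 to 13340 CPM in Ythdf2 KO spermatids against 7840 CPM in WT spermatids, and the part of both lists in the result was not tested.

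Levels in the 4 cell types were read from the control groups. They are given per kilobase of the principal transcript, as descriptions, since the tables came from different kits and were scaled apart. The median Mrps gene was at 89.6 CPM per kb in WT stem cells, 33.2 in Cre-negative GV oocytes, 14.2 in heterozygous post-GV oocytes and 8.99 in WT round spermatids. The median Mrpl gene was at 99.5, 37.9, 17.1 and 12.6 CPM per kb in the same order, while the median of all listed genes was 15.2, 3.95, 2.85 and 2.15. In heterozygous post-GV replicates 1, 2 and 3 the Mrps medians were 14.7, 20.4 and 7.67 CPM per kb. The Mrpl medians there were 17.2, 23.2 and 8.12. Replicate 3, of the second batch, thus lay below the spermatid library in both subunits. In stem cells 39 of 76 members were in the top 10% of listed genes, in GV oocytes 25 of 77, in post-GV oocytes 7 of 77 and in round spermatids 7 of 76. The members took 0.844% to 0.985% of all counts over the stem cell libraries. Their share was 0.513% to 0.696% over the GV libraries, 0.135% to 0.336% over the post-GV libraries and 0.214% to 0.231% over the spermatid libraries.

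The highest genes of each subunit varied with the cell type. In WT stem cells the highest Mrpl genes were Mrpl2, Mrpl42 and Mrpl54 (225.5, 212 and 202 CPM per kb) and the highest Mrps genes Mrps15, Mrps18c and Mrps9 (175, 164 and 152). With the union of exons as the length, Mrpl42 stood at place 28 of the large subunit there and Mrps9 at place 19 of the small subunit, while the other 4 stayed within the first 3. In control GV oocytes Mrps22, a small subunit protein found only in mitochondria, led with 231.5 ± 29.1 CPM per kb (SD, n = 4), followed by Mrps18c (179) and Mrps33 (128.5). In the large subunit Mrpl33 (168 ± 94.8), Mrpl18 (166 ± 12.8) and Mrpl42 (147 ± 46.9) came first and did not differ beyond their spread. The place of Mrpl33 and Mrpl42 rests on the length chosen: by the union of exons they stood at places 38 and 21 in GV oocytes, and at 32 and 19 in post-GV oocytes, while Mrpl18 was first in both. By the same length Mrps22 stood at place 4 of the small subunit in GV oocytes, with Mrps18c at place 1 and Mrps33 at place 2. In heterozygous post-GV oocytes Mrpl18 was at 91.1 ± 6.20 CPM per kb (SD, n = 3), while Mrpl33 ranged from 8.09 to 260.2 and Mrpl42 averaged 74.0 ± 44.9. There the small subunit was led by Mrps23 (62.7 ± 3.74), Mrps14 (53.2 ± 3.02) and Mrps21 (41.4 ± 20.7). In WT round spermatids Mrpl39 (161), Mrpl54 (132) and Mrpl41 (85.8) led the large subunit and Mrps11 (73.8), Mrps22 (72.8) and Mrps9 (68.4) the small subunit. Mrpl19 was the lowest or second lowest gene of the large subunit in each control group, at 1.61, 1.52, 1.27 and 0.396 CPM per kb. Beside it the lowest Mrpl genes were Mrpl17 (1.59) and Mrpl15 (5.01) in stem cells, Mrpl49 (9.85) and Mrpl17 (9.98) in GV oocytes, Mrpl11 (3.37) and Mrpl17 (3.80) in post-GV oocytes, and Mrpl49 (0.525) and Mrpl14 (0.545) in round spermatids. By the union of exons Mrpl49 and Mrpl17 stood at places 43 and 41 in GV oocytes, and Mrpl11 and Mrpl17 at 44 and 43 in post-GV oocytes. Mrpl23 and Mrpl15 were lower in both, at places 47 and 46. The lowest Mrps genes were Mrps25, Mrps14 and Mrps17 in stem cells (1.55, 6.72 and 17.9 CPM per kb) and Mrps26, Mrps5 and Mrps34 in GV oocytes (3.15, 3.30 and 5.73). In post-GV oocytes they were Mrps26, Mrps5 and Mrps35 (3.11, 3.40 and 5.34), and in round spermatids Mrps35, Mrps16 and Mrps24 (0.476, 0.509 and 0.514). Across genes, levels in GV and post-GV oocytes ranked most alike (Spearman rho 0.668 over 77 genes per kb, and 0.577 on CPM without lengths). Transcript length is shared by all 4 sets of values per kb, and the least alike pair changed with it: per kb it was post-GV oocytes and round spermatids (0.186 over 76), and on CPM stem cells and post-GV oocytes (0.0232 over 76). With the union of exons as the length, the order of members correlated with the one used here at 0.697 in stem cells and at 0.823 to 0.918 in the other cell types.

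**Figure D5:**
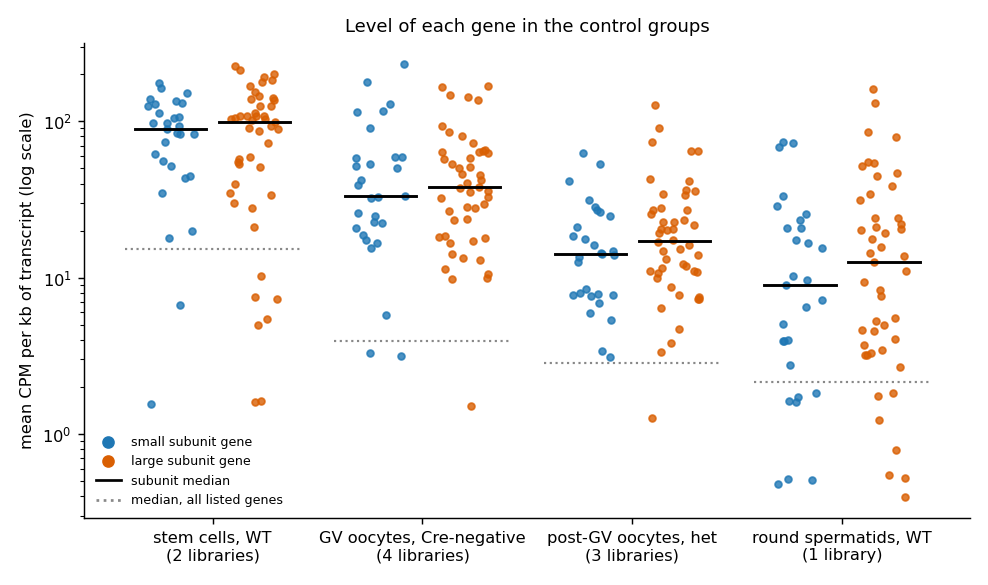
Mean CPM per kb of principal transcript of each gene (vertical axis, log scale) in the control group of each of the 4 cell types; blue points are Mrps and orange points Mrpl genes, black bars the subunit medians and dotted lines the median of all listed genes. The small and large subunit medians are 89.6 and 99.5 in WT stem cells and 8.99 and 12.6 in WT round spermatids, and each lies above the dotted line.

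Some features of the genes were set beside the calls as descriptions. In Mettl3 KO stem cells the ETS core stood in the window of 5 of 19 genes that rose and of 20 of 46 that were not called, and in triple KO cells in 3 of 18 that rose and 22 of 46 that were not called. In GV oocytes it stood in 5 of 15 genes that rose and 18 of 49 that were not called. The 4 genes that fell in GV oocytes were at 136 to 249.8 CPM in controls, against 5.26 to 100.3 CPM for the 16 that rose and 7.59 to 277 CPM for those not called. The control level is part of the fold behind these calls, and in triple KO cells the 2 genes that fell were at 20.2 and 159.9 CPM in WT cells, against 68.1 to 232.5 CPM for the 20 that rose.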

How the data were processed

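RNA was sequenced in 27 libraries of 12 groups, and 8 comparisons were made, each knockout against its own controls. Per the submitters' processing notes, CASAVA 1.8.2, cutadapt, STAR 2.4.2a and DESeq2 were used with genome build mm10 (the sources used here give no counter, annotation or strand setting). The tables deposited by the authors hold raw counts per gene, listing genes with at least 6 counts in some library. The post-GV table also holds the authors' normalized signal (counts divided by a size factor) and their batch-adjusted log2 values, which served here to read the batches only.

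From the counts, edgeR 4.0.16 (R 4.3.3, limma 3.58.1) gave TMM scaling, an expression filter (filterByExpr), a robust quasi-likelihood fit per table and Benjamini-Hochberg adjustment over all genes tested, with calls at 0.05. The procedure was tested on simulated data. Gene structure came from GENCODE M21 (GRCm38) and promoters from RefSeq. Alternatives were RLE scaling, no filter, a filter of 5 CPM, DESeq2 1.42.0, a fit on the compared groups, a replicate block, a batch term, other subunit assignments and leaving out each library.

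The members and lists were chosen with earlier results of these data known. Genes named are all called members, or, where over 20 were called, the 10 of each subunit with the smallest p; where fewer than 4 were called, those of smallest p up to 4; the Mrps18 paralogs, Mrpl12, Mrps12 and Ict1; and the 3 highest and lowest levels of each subunit. Exceptions are stated, and Mrps11, Mrpl46, Mrpl49, Mrps14, Mrps35 and Mrps36 were also followed outside the comparisons that named them. The 1 heterozygous library whose title repeats replicate 2 was taken as replicate 3, as its bracketed name has it.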

Additional observations from a re-analysis of the deposited data

Results flagged for a closer look

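Mrpl17, Mrpl49, Mrps25 and Mrps33 drew attention because every library of 1 Mettl3 experiment moved one way and every library of the other the opposite way. Their log2 changes in Mettl3 KO stem cells and in cKO GV oocytes were -1.07 and 1.26 for Mrpl17, -0.54 and 1.12 for Mrpl49, 0.73 and -1.07 for Mrps25, and 0.31 and -0.70 for Mrps33. In stem cells Mrpl49 alone of these passed the threshold, and in oocytes all 4 did. The difference between the experiments was not tested, because the libraries were made with different kits and counted in separate tables. Mrpl17 rested on 6.57 and 4.69 CPM in Mettl3 KO cells against 9.91 and 13.4 CPM in WT cells, and Mrps25 on 16.4 and 15.2 CPM in Mettl3 KO cells against 9.91 and 8.92 CPM in WT cells.

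In control GV oocytes Mrps18a was at 72.6 CPM in replicate 1 and at 43.8 to 48.5 CPM in the other 3 libraries, a gap that chance gives in about 1 in 20 groups. The same check was made on 47 values.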

How the results depend on the processing

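No called member changed direction under the alternatives run. Some named genes that were not called did shift with the library left out. Mrps18b, for example, was at 124 and 153 CPM in Ythdf3 KO cells, on either side of the 146.8 and 146.2 CPM in WT cells. The counts of called members under DESeq2 were 6 in triple KO cells (22 in edgeR), 8 in Mettl3 KO cells (24) and 25 in cKO oocytes (20), and the cause of the gap was not tested. Leaving out each library in turn gave 11 to 15 calls in triple KO cells, 13 to 17 in Mettl3 KO cells and 11 to 24 in cKO oocytes. A batch term gave 1 call in post-GV oocytes, against 0. RLE scaling, other filters and a fit on the compared groups kept each count within 1.5 times, as did counting Mrps18a as large and leaving out Mrps36.

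With the replicate number as a block, 22, 24 and 26 members were called in triple KO cells, Mettl3 KO cells and cKO oocytes, and 0 in the single reader knockouts and in post-GV oocytes. The numbers were not taken as pairs in the main fits, since the labels give only replicate numbers or letters. Between libraries of different groups, deviations of log2 CPM from the group mean were correlated over the genes tested. For same-numbered GV libraries the correlation was 0.0919 to 0.417 (median 0.245). For GV libraries of different numbers it was -0.361 to 0.133 (median -0.0529). Deviations of stem cell libraries of the same letter correlated at -0.00 to 0.116 (median 0.0335), and the other pairs mirror these values (median -0.0335). Whether replicates share an effect of number or letter was not tested. No paired analysis was possible because of the single control in round spermatids, where leaving out a library leaves no residual spread. Totals without mitochondrially encoded genes were not run, since 0 such symbols are listed.

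Without the 3 members of highest mean CPM over all libraries of a table, the summed Mrps level in controls was 2730 CPM in stem cells, 1484 in GV oocytes, 495.5 in post-GV oocytes and 386.0 in round spermatids, and the summed Mrpl level was 4380 in stem cells, 2571 in GV oocytes and 1070 in round spermatids. Without scaling factors the Mrps and Mrpl sums were 3403 and 5124 CPM in stem cells and 618.1 and 1686 CPM in round spermatids. Stem cell libraries held the fewest counts, so that members near 10 CPM rest on few reads there.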
